A study of Gallus gallus with 3 samples.

Results

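The genes described here encode enzymes that turn lanosterol, the first ring-shaped sterol of the pathway, into cholesterol. They were followed in RNA sequencing libraries of chicken granulosa cells, the somatic cells that surround the oocyte within an ovarian follicle. There were 3 libraries, 1 for each stage of follicle growth: a follicle of 6 mm that has not yet been selected to grow on towards ovulation, an F5 follicle in fast early preovulatory growth, and an F1 follicle, the late preovulatory follicle that ovulates next. The cells were isolated on ice from hens for which no treatment or genetic change is named. The labelled ages were 10 to 15 months for 6 mm, 10 to 16 months for F5 and 10 to 17 months for F1, and neither a breed nor the number of hens and follicles behind each library is stated in the sources used here. Members were taken by gene symbol: 7 symbols were looked up (CYP51A1, TM7SF2, MSMO1, NSDHL, EBP, SC5D and DHCR7), and 6 of them had an entry among the 19309 genes with a value. The unit throughout is FPKM, the reads of a gene scaled to its length and to the total of its library, which was 14086626 to 14923359 reads. With 1 library per stage no difference has a replicate check, and the bracketed 95% intervals are exact and cover counting error only.

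Cholesterol is made from acetyl units in a long chain of reactions, and the late part works on the finished ring system. CYP51A1 removes a methyl group from lanosterol, a sterol reductase (TM7SF2 or LBR) reduces the double bond this leaves, and MSMO1, NSDHL and HSD17B7 take off a further pair of methyl groups. EBP then shifts a double bond within the ring, SC5D introduces another one and DHCR7 reduces the last superfluous one. In steroid-making cells cholesterol is the substrate of progesterone, the main steroid of avian preovulatory granulosa cells, and many genes of the pathway are known targets of the sterol-sensing transcription factor SREBF2.

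The entry named EBP went against its label. It is a stretch of 267 bases on chromosome 11 (ENSGALG00000026525, 9780741 to 9781007, minus strand; the labels and files name no genome build), and the files annotate it with a basic-leucine zipper domain, a DNA-binding fold of transcription factors. Of its 35 molecular function terms, 0 named an isomerase and 23 named DNA binding or transcription. The next gene in the files carries the name C and the same domain, followed by PEPD. In the RefSeq gene table of the assembly GRCg7b the genes before PEPD are CEBPA, which has the synonym cC/EBP, and CEBPG. The entry is therefore called the entry named EBP, and its values are not read as those of the sterol isomerase. A different entry, Novel01841 on an unplaced scaffold (398 to 1428, minus strand), is annotated in the files as a cholestenol delta-isomerase, the reaction that EBP is known for. It is described beside the members as the delta-isomerase entry, and it was picked after its values were seen. TM7SF2 had no entry by the rule and is not analysed here. RefSeq lists TM7SF2 as a synonym of chicken LBR, whose protein has the same kind of reductase domain, and LBR is given below among the other genes of the late pathway.

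The other 5 members agreed in name, domain and pathway annotation. CYP51A1 is ENSGALG00000009365 on chromosome 2 (22620217 to 22633995, minus strand), annotated as a cytochrome P450. MSMO1 is ENSGALG00000009560 on chromosome 4 (23326894 to 23333143, plus strand) and SC5D is ENSGALG00000026871 on chromosome 24 (3525335 to 3529948, minus strand), both with a fatty acid hydroxylase domain. NSDHL is ENSGALG00000007493, also on chromosome 4 (11231922 to 11242461, minus strand), with a hydroxysteroid dehydrogenase domain. DHCR7 is ENSGALG00000004106 on chromosome 5 (1673770 to 1680338, plus strand), with the ERG4/ERG24 domain of sterol reductases.

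CYP51A1, the demethylase that acts first on lanosterol, stood at 30.8 FPKM in the 6 mm library (29.1 to 32.6), 65.3 in F5 (62.7 to 68.0) and 138 in F1 (134 to 142). Its level was thus higher at each stage than at the one before, with counting intervals that did not overlap. MSMO1, the oxidase that attacks the methyl groups at the ring's edge, stood at 53.9 in 6 mm (51.1 to 56.8), 57.7 in F5 (54.7 to 60.7) and 288 in F1 (282 to 295). Its F1 level was far above the other 2, which were within counting error of each other. NSDHL, the dehydrogenase of the same demethylation, stood at 28.2 in 6 mm (26.2 to 30.3), 23.4 in F5 (21.5 to 25.3) and 79.5 in F1 (76.1 to 83.0). It was lowest in F5, as MSMO1 and DHCR7 also were with one sum of FPKM for every library or with the genes of most reads left out of the scaling, though not in the values as deposited.

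SC5D, the desaturase that makes the substrate of DHCR7, stood at 40.7 in 6 mm (38.6 to 42.9), 76.0 in F5 (73.1 to 79.1) and 253 in F1 (247 to 258). Like CYP51A1 it was higher at each stage than at the one before. DHCR7, whose reaction gives cholesterol, stood at 16.3 in 6 mm (15.0 to 17.6), 17.2 in F5 (15.9 to 18.6) and 129 in F1 (125 to 133). Its 6 mm and F5 levels were within counting error of each other, as for MSMO1. The delta-isomerase entry stood at 46.3 in 6 mm (42.5 to 50.4), 81.2 in F5 (76.0 to 86.7) and 263 in F1 (254 to 273). The order of its 3 levels was that of CYP51A1 and SC5D. The entry named EBP had far fewer reads, at least 5 in 6 mm, 23 in F5 and 6 in F1, which gave FPKM values of 1.25 (0.407 to 2.93), 6.09 (3.86 to 9.14) and 1.60 (0.585 to 3.47). It was highest in F5, unlike the 5 enzymes and the delta-isomerase entry, all of which were highest in F1.

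**Figure D1:**
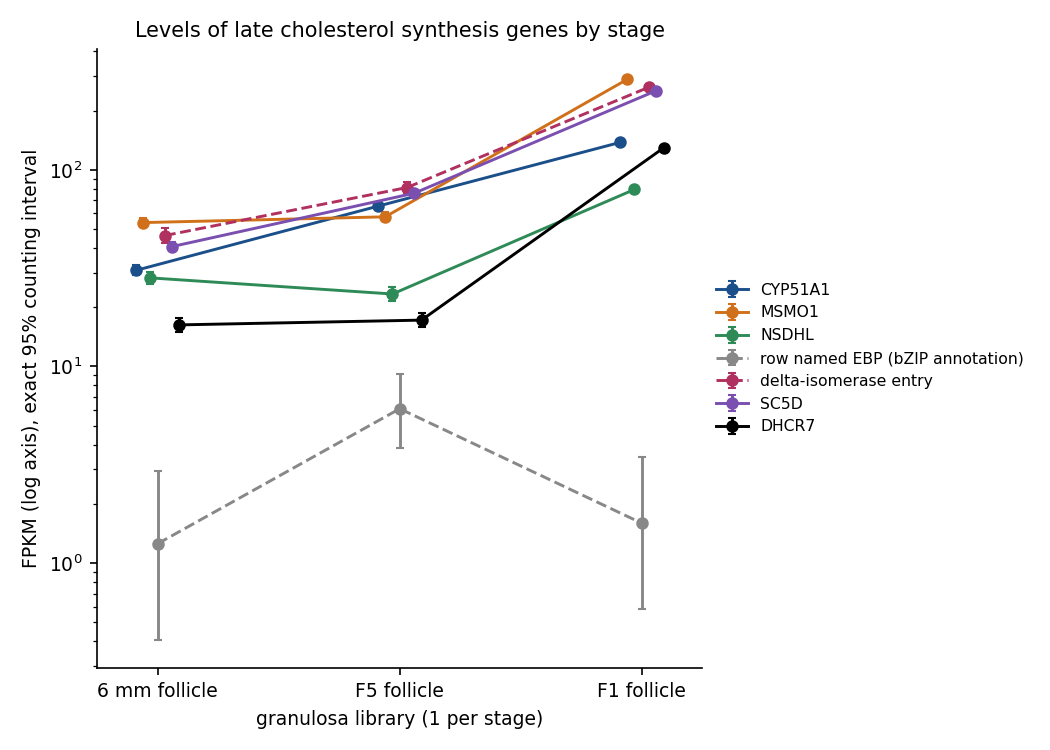
FPKM on a log axis of each late cholesterol synthesis gene in the 3 granulosa libraries, with exact 95% counting intervals; lines join the values of 1 gene, and dashed lines mark the entry named EBP and the delta-isomerase entry. The 5 enzymes reach 79.5 to 288 in F1, while the entry named EBP peaks at 6.09 in F5.

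The comparison of F5 with 6 mm covers the selection of the follicle. CYP51A1 was 2.12-fold higher in F5 (1.98 to 2.28) and SC5D 1.87-fold higher (1.75 to 1.996), while MSMO1 was 1.07-fold (0.993 to 1.15) and DHCR7 1.06-fold (0.943 to 1.19), both with intervals that include no difference and with a sign that turned under 2 other scalings. NSDHL was 1.21-fold lower in F5 (1.08 to 1.35). The delta-isomerase entry was 1.75-fold higher (1.58 to 1.95) and the entry named EBP 4.86-fold higher, with a wide interval of 1.81 to 16.4. The first and the late middle step of the section thus stood higher in F5, and the demethylation by MSMO1 and NSDHL and the final reduction by DHCR7 did not.

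A gene was counted as different where log2(FPKM + 1) differed by at least 1 between 2 libraries, a 2-fold difference on a scale that understates the difference of low genes, among genes that reached 1 FPKM in at least one of them. All 6 entries passed that filter in each comparison. In F5 against 6 mm, 2 of the 6 were counted as higher, CYP51A1 and the entry named EBP, and 0 as lower. Of all 12611 genes 7.64% were higher and 10.8% lower, 18.4% in all, and the split was 6.83% and 17.5% with every library scaled to one sum of FPKM. The median difference of the 6 entries was 0.49 on the log2(FPKM + 1) scale, against -0.13 for all genes. Without the entry named EBP the median of the 5 enzymes was 0.10, with 1 higher, and CYP51A1 itself lay near the threshold at 1.06. CYP51A1 came to 0.87 with one sum for every library, 0.93 with the genes of most reads left out of the scaling and 0.97 with a pseudocount of 5, and SC5D, at 0.88, came to 1.00 with median-of-ratios scaling. The entry named EBP, at 1.65, came to 0.83 with a pseudocount of 5.

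The comparison of F1 with F5 covers the growth of the selected follicle up to the time before ovulation. All 5 enzymes were higher in F1, and by different amounts. DHCR7 was 7.51-fold higher (6.90 to 8.19), MSMO1 5.003-fold (4.73 to 5.30), NSDHL 3.40-fold (3.10 to 3.74), SC5D 3.32-fold (3.18 to 3.48) and CYP51A1 2.11-fold (2.01 to 2.22). The counting intervals of DHCR7, MSMO1 and CYP51A1 overlapped with none of the other enzymes, and those of NSDHL and SC5D overlapped with each other. The delta-isomerase entry was 3.24-fold higher (3.01 to 3.50), with an interval that overlapped those of SC5D and NSDHL. The entry named EBP was 3.82-fold lower in F1 (1.51 to 11.5).

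By the 2-fold count, 5 of the 6 entries were higher in F1 than in F5 and 1, the entry named EBP, lower. Of all 11758 genes 5.09% were higher and 22.9% lower, 28% in all, and with median-of-ratios scaling, which moves the median of all genes to 0.02, the split was 10.8% and 11.6%. The median difference of the 6 entries was 1.72 against -0.53 for all genes. Only 0.672% of all genes had a higher difference than DHCR7, 1.11% than MSMO1, 1.91% than NSDHL, 1.94% than SC5D and 4.61% than CYP51A1. With the delta-isomerase entry in place of the entry named EBP, 6 of 6 were higher at the same median of 1.72. CYP51A1 was again near the threshold, at 1.07, and came to 0.95 with one sum for every library. The entry named EBP, at -1.45, came to -0.75 with a pseudocount of 5.

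**Figure D2:**
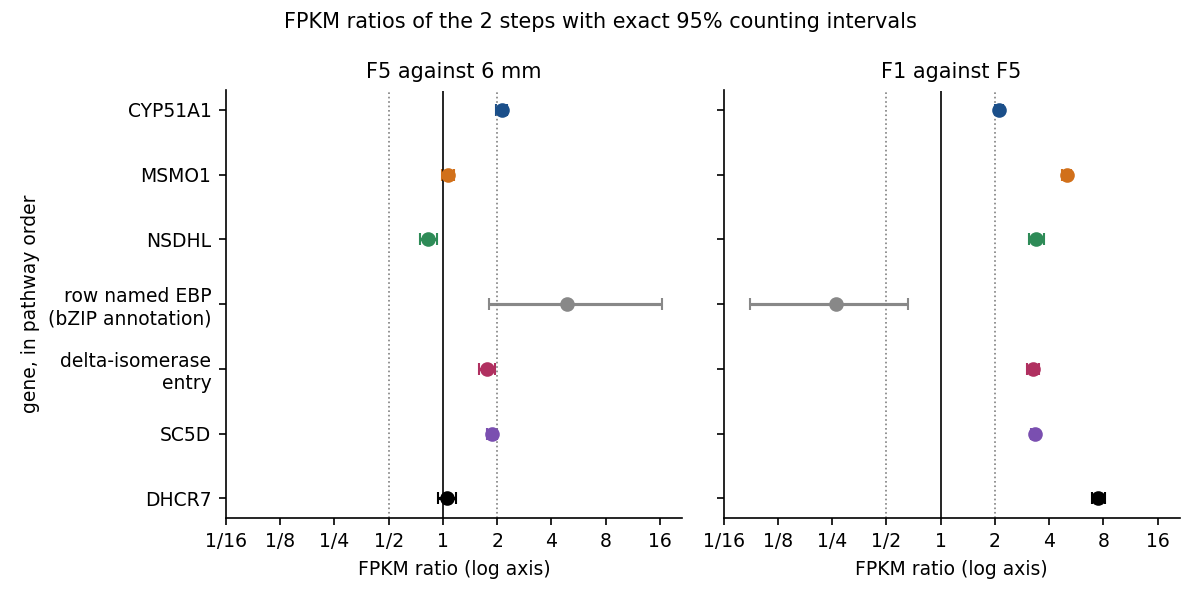
Ratio of FPKM values on a log axis for F5 against 6 mm (left) and F1 against F5 (right). Genes run from top to bottom in pathway order, where the entry named EBP has its place by its label only. Bars are exact 95% counting intervals, and dotted lines mark 2-fold differences. The ratios of the 5 enzymes lie between 0.828 and 2.12 on the left and between 2.11 and 7.51 on the right.

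From 6 mm to F1, the full span of the series, DHCR7 was 7.94-fold higher (7.29 to 8.66), SC5D 6.21-fold (5.86 to 6.57), MSMO1 5.35-fold (5.05 to 5.67), CYP51A1 4.47-fold (4.20 to 4.77) and NSDHL 2.82-fold (2.59 to 3.07). The delta-isomerase entry was 5.68-fold higher (5.19 to 6.24), and the entry named EBP 1.27-fold (0.323 to 5.27), an interval that includes no difference. The 2-fold count gave 5 of 6 entries higher and 0 lower, where 7.45% of all 12482 genes were higher and 32.8% lower, 40.3% in all, or 15.5% and 17.4% with median-of-ratios scaling. This comparison shares its libraries with the other 2 and adds no separate measurement. The way the difference was spread over the 2 steps set the enzymes apart in the values as deposited. Of the log2 ratio between F1 and 6 mm, the step from F5 to F1 held 49.8% for CYP51A1, 65.8% for SC5D, 67.7% for the delta-isomerase entry, 96.0% for MSMO1 and 97.3% for DHCR7. For NSDHL, which was lower in F5 than in 6 mm, that step was larger than the whole difference. These shares depended on the scaling. On the log2(FPKM + 1) scale with libraries scaled to the same sum, that step was also larger for MSMO1, at 2.19 against 2.09. For DHCR7 it was then 2.75 against 2.63. With median-of-ratios scaling CYP51A1 came to 1.68 of 2.85.

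Among the 12812 genes that reached 1 FPKM in some library, 3.33% were at least 2-fold higher in F1 than in F5 with less than a 2-fold difference between F5 and 6 mm, the pattern of MSMO1, NSDHL, SC5D and DHCR7. A further 0.718% were at least 2-fold higher at both steps, as CYP51A1 was. The placing of CYP51A1 and SC5D depended on the scaling. CYP51A1 came to 0.87 and 0.95 at the 2 steps with one sum for every library, below the threshold at both. With median-of-ratios scaling SC5D came to 1.00 and 2.33, past the threshold at both. The entry named EBP belonged to the 3.21% that were higher in F5 than in 6 mm and lower in F1 than in F5.

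**Figure D3:**
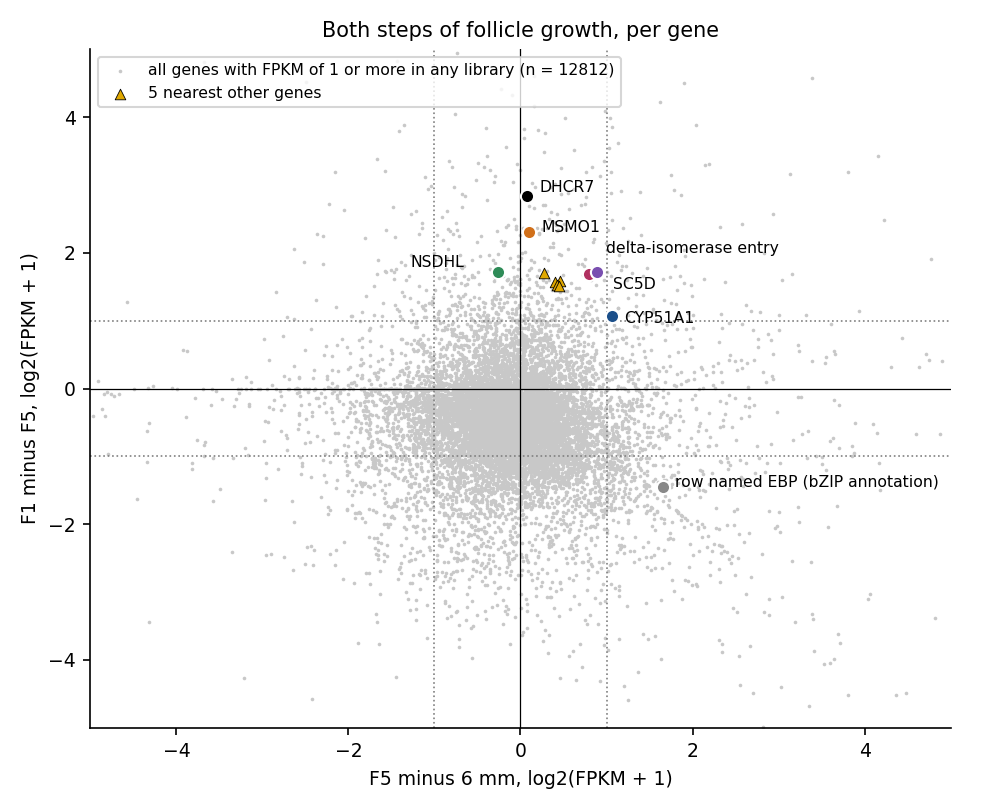
Difference of log2(FPKM + 1) between F5 and 6 mm (horizontal) against that between F1 and F5 (vertical) for 12812 genes in grey, the late pathway entries in colour and the 5 genes nearest to their median as triangles; dotted lines mark 2-fold differences, and 36 genes lie outside the plotted range. The 5 enzymes lie in the upper part at vertical values of 1.07 to 2.84 and the entry named EBP lies at the lower right.

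The levels of the enzymes relative to each other, which FPKM puts on a per-length scale, changed along with this. In 6 mm the order from the highest was MSMO1, SC5D, CYP51A1, NSDHL and DHCR7, and CYP51A1 and NSDHL did not differ beyond counting error, with a ratio of 1.09 (0.995 to 1.20). In F5 the order was SC5D, CYP51A1, MSMO1, NSDHL and DHCR7, with NSDHL 1.36-fold above DHCR7 (1.21 to 1.52). In F1 it was MSMO1, SC5D, CYP51A1, DHCR7 and NSDHL, so that DHCR7 stood above NSDHL only there, and CYP51A1 was just 1.07-fold above DHCR7 (1.02 to 1.11). The delta-isomerase entry and SC5D were within counting error of each other in F5, at a ratio of 1.07 (0.989 to 1.15), and in F1, at 1.04 (0.999 to 1.09).

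Summed over the 5 enzymes, the level came to 169.9 FPKM at 6 mm, 239.6 at F5 and 888 at F1. The highest of the 5 exceeded the lowest by 3.31-fold in 6 mm, 4.42-fold in F5 and 3.63-fold in F1. The 5 genes held 5316 reads of the 6 mm library, 7411 of F5 and 26676 of F1. By level among all 19309 genes, MSMO1 was in the top 7.71% in 6 mm and the top 1.18% in F1, SC5D in the top 10.8% and 1.36%, and DHCR7 in the top 25.4% and 2.57%. CYP51A1 was in the top 14.7% in 6 mm and the top 2.40% in F1, and NSDHL in the top 15.8% and 4.10%.

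The other genes of the late pathway described here did not share one pattern. HSD17B7, the reductase that follows NSDHL, stood at 15.3 in 6 mm, 23.5 in F5 and 62.7 in F1, and was 2.67-fold higher in F1 than in F5 (2.48 to 2.88). LBR, a protein of the inner nuclear membrane with sterol reductase activity, stood at 32.7, 38.4 and 25.9, and was 1.48-fold lower in F1 than in F5 (1.35 to 1.63). That difference, -0.55 on the log2(FPKM + 1) scale, lay at the median of all genes (-0.53) and turned to 0.05 with median-of-ratios scaling. C14orf1, now called ERG28, an anchor of the demethylation enzymes known from yeast, stood at 96.9, 96.8 and 110.5. Its largest ratio between libraries was 1.14 in the values as deposited. On the log2(FPKM + 1) scale its difference between F1 and 6 mm ran from -0.13 with one sum for every library to 0.92 with median-of-ratios scaling. FAXDC2, which shares the fatty acid hydroxylase domain of MSMO1 and SC5D, was low at 0.807, 3.15 and 1.28.

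In the early part of the pathway, from acetyl units to lanosterol, 10 of 11 genes had an entry. FDPS was listed at 0 in all 3 libraries, and the other 9 were measured. In F1 against F5, 7 of the 9 were counted as higher and 0 as lower, where 5.09% of all genes were higher and 22.9% lower. The median of the 9 was 1.49. HMGCS1, which makes the precursor of mevalonate, was 9.72-fold higher in F1 (9.12 to 10.4) and LSS, which makes lanosterol itself, 3.36-fold (3.22 to 3.52). LSS stood at 64.2 in 6 mm, 79.6 in F5 and 268 in F1, and its F1 to F5 ratio lay in the range of SC5D and NSDHL. In F5 against 6 mm, 0 of the 9 were counted as higher or lower, where 18.4% of all genes were. The median of the 9 was 0.30. The early and the late lists thus both stood above the median of all genes at both steps, and no test of a difference between them was possible with 1 library per stage.

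CYP51A1, MSMO1 and SC5D need electrons from partner proteins, and the 4 partner genes looked up were measured. CYB5A, the microsomal cytochrome b5, stood at 41.3 in 6 mm, 39.5 in F5 and 96.7 in F1. It was the 1 of 4 counted as higher in F1 than in F5, at 2.45-fold (2.19 to 2.75), and 0 were counted as lower. Of all genes 5.09% were higher and 22.9% lower. CYB5B, the mitochondrial form, was at 75.8, 60.9 and 42.0, and CYB5R3, a cytochrome b5 reductase, at 13.5, 19.0 and 24.0. POR, the remaining partner gene, was named after its values were seen and stood at 79.7, 74.9 and 66.8. Its difference in F1 against F5 was -0.16 on the log2(FPKM + 1) scale, and 0.45 with median-of-ratios scaling. The list's median in F1 against F5 was 0.08, against -0.53 for all genes. The difference of CYB5B there was -0.52, close to that of all genes, and turned to 0.08 with median-of-ratios scaling.

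Among 11 sterol regulators and their targets, 10 had an entry and 8 were measured in F1 against F5. Of these 8, 4 were counted as higher and 0 as lower, with a median of 0.56. STARD4, a sterol carrier, stood at 1.52 in 6 mm, 4.22 in F5 and 15.5 in F1. SCAP, which escorts the SREBF factors to their activation, stood at 33.3, 127 and 376, and SREBF1 at 14.3, 25.3 and 64.5. INSIG1, which holds SCAP back when sterols are plentiful and was chosen here after its values were seen, stood at 28.3, 50.3 and 50.4, so that its F1 to F5 ratio was 1.00 (0.922 to 1.09). On the log2(FPKM + 1) scale this difference ran from -0.11 with one sum for every library to 0.61 with median-of-ratios scaling. In F5 against 6 mm 3 of 9 measured regulators were counted as higher and 1, INSIG2, as lower. INSIG2, also named after its values were seen, stood at 4.49 in 6 mm, 0.484 in F5 and 0.0647 in F1. It did not pass the filter in F1 against F5. Of all genes 5.09% were higher and 22.9% lower in F1 against F5, and 7.64% and 10.8% in F5 against 6 mm, so that 1 of 9 lower was near the share of all genes.

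Of 14 genes that take up, move or use cholesterol, 13 had an entry and 11 were measured in F1 against F5. Of the 11, 6 were counted as higher and 0 as lower, with a median of 1.47. Below the threshold of that count, NPC1, FDX1 and LRP8 were lower in F1 than in F5, and SOAT1 and VLDLR higher. On the log2(FPKM + 1) scale NPC1 was at -0.42, FDX1 at -0.45 and LRP8 at -0.53, where the median of all genes was -0.53. With median-of-ratios scaling NPC1 turned to 0.20 and FDX1 to 0.12, while LRP8 came to -0.24. VLDLR stood at 454 in 6 mm, 124 in F5 and 159 in F1, so that it was highest in 6 mm. STAR, which brings cholesterol into mitochondria, was 10.9-fold higher in F1 (10.1 to 11.8), NPC2, a lysosomal sterol carrier, 9.17-fold (9.08 to 9.26) and CYP11A1, which cuts its side chain, 4.49-fold (4.21 to 4.80). In F5 against 6 mm 5 of 12 were counted as higher and 3 as lower. The shares of all genes were 5.09% higher and 22.9% lower for the former comparison, and 7.64% and 10.8% for the latter. CYP11A1 was at 2.65 in 6 mm, so its 47.6-fold difference from F5 lay at the step where MSMO1 and DHCR7 were within counting error.

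**Figure D4:**
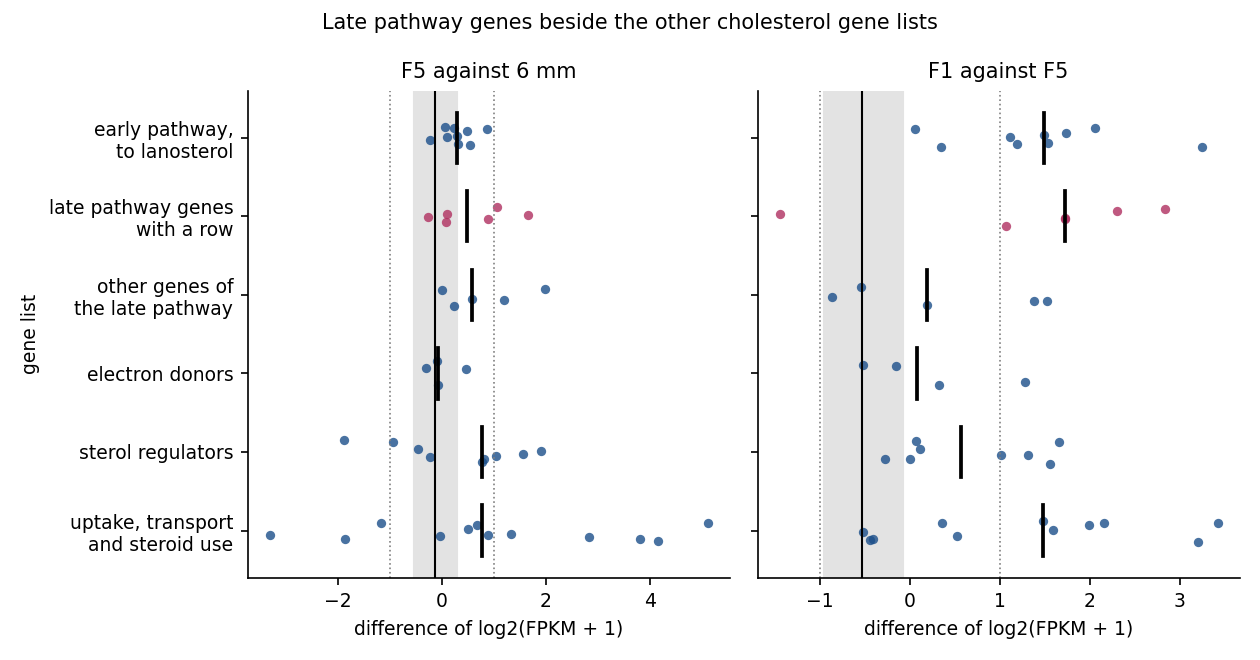
Difference of log2(FPKM + 1) for each measured gene of 6 lists, F5 against 6 mm (left) and F1 against F5 (right); each point is a gene, thick bars are list medians, the vertical line is the median of all genes and the grey band spans their quartiles, and dotted lines mark 2-fold differences. On the right the late pathway entries have a median of 1.72 and the early pathway one of 1.49, against -0.53 for all genes. The late pathway entries include the entry named EBP. Without it their median is 1.72 on the right, and on the left 0.10 in place of 0.49.

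Markers of other cell types differed between the libraries too. Fewer cells of a type and less RNA per cell cannot be told apart in such bulk samples. The 7 granulosa markers were above 0 in every library, and their summed level was 1445 FPKM at 6 mm, 5991 at F5 and 4926 at F1. Most of that sum in F5 and F1 was INHA, at 132 in 6 mm, 4631 in F5 and 3013 in F1. Single granulosa markers went both ways: AMH, a hormone of small follicles, stood at 384, 18.2 and 0.779, and the nuclear receptor NR5A2 at 0.255, 123 and 143. The summed FPKM of 9 markers of theca and smooth muscle came to 700.5 at 6 mm, 24.6 at F5 and 18.0 at F1, that of 5 endothelial markers 68.6, 13.1 and 2.68, that of 4 markers of surface epithelium 228, 24.6 and 3.81, and that of 5 oocyte markers 47.5, 11.8 and 0.524. The theca sum in F1 was mostly COL1A2, a collagen chain, at 15.97 against 10.5 in F5. The largest parts of that sum at 6 mm were COL3A1 at 185, COL1A2 at 168 and TAGLN at 163. By the 2-fold count 8 of these 9 markers were lower in F5 than at 6 mm. CYP17A1 went the other way, 1.73-fold higher in F5 (1.21 to 2.49), with levels of 2.12, 3.66 and 0.173 by stage. The sum of 6 leukocyte markers was 112, 48.7 and 136. CD74 stood at 69.7, 40.5 and 133 and CD79B at 0.380, 0.668 and 1.21, both highest in F1. BLB1 stood at 30.3, 5.46 and 2.32, CD3E at 6.14, 1.06 and 0.0279 and CSF1R at 5.22, 0.585 and 0.0203, all highest in 6 mm, and PTPRC was low throughout at 0.219, 0.392 and 0.0179. Of 5 red cell markers 2 had an entry, summing to 5.09 in 6 mm and 0 in F5 and F1. The part of other cells in the levels of the late pathway genes was not tested.

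The genes whose 2 steps were most like the median of the 6 entries (0.49 and 1.72) were sought among 5637 other named genes that reached 10 FPKM in some library. By Euclidean distance on the log2(FPKM + 1) scale, which rests on 3 libraries, they were MAPKAPK2, a kinase of stress signalling, at 0.146, CANX, a chaperone of the endoplasmic reticulum, at 0.175, KIAA0513 at 0.209, DMA, which helps to load antigen-presenting proteins, at 0.215 and SLC1A4, an amino acid transporter, at 0.221. These names rest on the entry named EBP being in the median. Without it the median steps were 0.10 and 1.72, and 0 of the 5 nearest genes were the same. They were then FGL2 at a distance of 0.0212, MCTP1 at 0.0532, GATSL3 at 0.112, LBH at 0.127 and HHIPL2 at 0.172, a choice made after the values were seen. CANX, of the former 5, stood at 63.3 in 6 mm, 84.3 in F5 and 252 in F1. Of the members themselves, SC5D was nearest to the median of the 6 entries at 0.395, where 20 of the 5637 genes were nearer, and DHCR7 was at 1.19, where 267 were. SC5D is among the members whose steps set that median, which also includes the entry named EBP, so the nearness of SC5D is no result. The median without that entry, 0.10 and 1.72, lay nearer to NSDHL, at -0.26 and 1.72, than to SC5D, at 0.88 and 1.72.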

How the data were processed

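RNA of 3 granulosa libraries was enriched by poly-A and copied from random hexamers, per the labels' protocols. Per the submitters' processing notes, TopHat2 version 2.0.12 and HTSeq version 0.6.1 were used. Genome build and strand setting are not given in the sources used here. The authors deposited FPKM values per gene, the only unit used. Each file had 2 lines without a gene, left out.

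FPKM values were converted to the smallest whole reads and lengths that give them, for all 17019 genes above 0, with a largest relative deviation of 5.0e-15. A factor common to all 3 libraries cannot be seen, so a gene's true reads may be a whole multiple of these, and its interval is then too wide, never too narrow. The reads came to 93.8% to 94.8% of the library totals. Intervals are exact Poisson ones for levels and exact conditional binomial (Clopper-Pearson) ones for ratios, at 95%, from scipy 1.17.1, and cover counting error only. A pseudocount of 1 was used. With 1 library per stage no test was made. Recovery was tested on simulated data. Python 3.11.15 was used.

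Members and gene lists were chosen with earlier results of these data known. Named from each other list were the 3 genes of largest difference in F1 against F5, all other late genes, and the 5 genes of most similar steps; exceptions are marked. Some genes that this rule names are not reported here. A gene's row was found by its name, or else by its first KEGG symbol. Alternatives were a pseudocount of 0.1 or 5, 3 other scalings (libraries scaled to the same sum, median-of-ratios, and without the 10 genes of most reads in each library), no filter or one at an FPKM of 5, and summing all rows of a member, which changed nothing since each had 1.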

Additional observations from a re-analysis of the deposited data

How the results depend on the processing

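No paired analysis was possible because each stage had 1 library. In F1 against F5 the 2-fold count of the 6 members with an entry stayed at 5 or 6. That held for the 8 alternatives listed at the outset and both treatments of the entry named EBP, which were chosen after seeing the data. It was 4 higher and 1 lower with libraries scaled to the same sum, and 5 higher and 0 lower with a pseudocount of 5. Leaving out the filter and summing rows could not change it, since all 6 passed the filter and each had 1 row. The filter at an FPKM of 5 removed none of them. The median there moved from 1.72 to 2.33 with median-of-ratios scaling and 1.93 when scaled without the genes of most reads. In F5 against 6 mm the count of 2 became 3 with median-of-ratios scaling and 0 with a pseudocount of 5. It became 1 when scaled to the same sum or without the genes of most reads. The count was also 1 with the entry named EBP left out or replaced by the delta-isomerase entry. The median moved from 0.49 to 0.61 with median-of-ratios scaling, 0.30 with libraries scaled to the same sum, 0.36 without the genes of most reads and 0.10 without the entry named EBP. In F1 against 6 mm the median of 2.26 became 2.16 with a pseudocount of 5, 2.99 with median-of-ratios scaling, 1.96 with libraries scaled to the same sum, 2.40 with a filter at an FPKM of 5 or without the entry named EBP, and 2.44 with the delta-isomerase entry in its place. Median-of-ratios scaling moved the median of all genes in F1 against F5 from -0.53 to 0.02. Scaling to the same sum moved it to -0.66. The members' median lay 2.28 to 2.31 above that of all genes under both. Scaling shifts both medians by nearly the same amount, so this distance could hardly change and is no check. Of 108 values of single members under alternatives, 104 kept their sign and 97 also their side of the 2-fold threshold. These totals include values that could not change. A pseudocount cannot turn a sign, and summing the rows of a member changed no value. Only the 3 other scalings could turn a sign. The 4 that changed sign were MSMO1 and DHCR7 in F5 against 6 mm, at -0.10 and -0.12 with libraries scaled to the same sum and at -0.04 and -0.05 without the genes of most reads. The cause was not tested. Depth limited the entry named EBP most among the members, with at least 5 to 23 reads.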

Other observations

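Genes that share a protein domain with the members differed among themselves in their levels between stages. This look at the domain annotation was added after the data were seen. The fatty acid hydroxylase domain was annotated in 6 genes, of which 4 were measured in F1 against F5. MSMO1 and SC5D were the 2 counted as higher, where 5.09% of all genes were. Both are members already counted above, so this count says nothing further about the domain. The other 2 measured genes, FA2H and FAXDC2, were not counted as different. By its FPKM ratio FAXDC2 was 2.46-fold lower in F1 than in F5 (1.32 to 4.82). On the log2(FPKM + 1) scale of the count its difference was -0.86. FA2H, which hydroxylates the fatty acids of sphingolipids, stood at 6.38 in 6 mm, 3.09 in F5 and 3.63 in F1. CH25H, which makes a signalling oxysterol, was low throughout, at 0.325, 0.171 and 0.0860 in the same order.

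The hydroxysteroid dehydrogenase domain of NSDHL was annotated in 14 genes, of which 10 were measured in F1 against F5. NSDHL and HSD3B2, which makes progesterone, were the 2 counted as higher, and 3 were counted as lower, with a median of -0.64 over the 10. Both higher genes were already counted above, NSDHL as a member and HSD3B2 among the genes that use cholesterol. Of all genes 5.09% were higher and 22.9% lower, and the median was -0.53. Neither the count of lower genes nor the median of the 10 stood apart from all genes. HSD3B2 stood at 67.3 in 6 mm, 487 in F5 and 1938 in F1, so that it was 7.23-fold higher in F5 than in 6 mm, where NSDHL was 1.21-fold lower. Among the lower ones FAR2, a reductase of fatty acids, stood at 22.96, 17.5 and 3.64.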
